A study of Homo sapiens with 25 samples.

Results

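The genes described here encode 9 proteins of the nuclear lamina and inner nuclear membrane: the lamins LMNA, LMNB1 and LMNB2, the lamin B receptor LBR, the LEM-domain proteins TMPO and LEMD3, the DNA-bridging protein BANF1, and the SUN proteins SUN1 and SUN2. They were chosen by name with earlier results of these data known, under a rule that uses no measured value. They come from 19970 protein-coding genes on chromosomes 1 to 22 and X. They were examined by chromatin immunoprecipitation and sequencing in 2 conditions of MDA-MB-231, a line derived from a human breast cancer that lacks hormone receptors and HER2. PML knockdown cells carried a lentiviral short hairpin RNA against PML, which builds the nuclear bodies of the same name. Control cells are labelled only as control, and the labels do not say whether they received a hairpin. A hairpin acts on the transcript, so no list here measures how far PML was depleted. Both were fixed with disuccinimidyl glutarate and then formaldehyde. H3K4me3, a mark of active promoters, and H3K27ac, a mark of active promoters and enhancers, were each deposited as 1 peak list per condition called on replicates 1 and 2 together. Domain lists were deposited for LMNB1 protein and H3K9me3 in each condition and for PML, whose 3 libraries are titled with no condition. Whether the domain lists pool replicates is not stated. Each list gives its values once, with none per replicate, and depth is unknown. No difference between conditions therefore has a replicate check, and a missing peak means only that none passed the authors' threshold. A weaker mark in every cell and a mark in fewer cells cannot be told apart in such lists.

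The lamina is a meshwork of lamins under the inner nuclear membrane, to which large silent stretches of chromosomes are tethered. LBR and the LEM-domain proteins hold chromatin at the membrane, the LEM domain by way of BANF1, and SUN proteins join the lamina to the cytoskeleton across the envelope. LMNB1 is therefore seen here in 2 ways, as a gene with its own promoter and as the protein whose contacts the domain lists map.

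Markers of this cell line and of other cell types were looked up in the peak lists. All 6 basal and mesenchymal markers (VIM, CD44, CAV1, EGFR, MET and ANXA1) carried both marks at their promoters in each condition. Of 6 luminal markers, 4 in the knockdown list, against 3 in the control list, had an H3K4me3 promoter peak, and 1, KRT18, had an H3K27ac promoter peak in both. Over all protein-coding promoters, H3K4me3 peaks were at 63.7% in the knockdown and 61.8% in the control list, and H3K27ac at 53.7% and 50.8%. EPCAM, an epithelial marker, and COL1A1, a fibroblast marker, had H3K4me3 in both lists. COL1A1 also had H3K27ac in both lists, and EPCAM had it in the knockdown list only. PTPRC, CD3E and PECAM1, which mark blood and endothelial cells, had neither mark in either condition. Over all promoters marked in both lists, the authors' fold enrichment was higher in the knockdown than in the control list by a median of 1.89 times for H3K4me3 and 1.38 times for H3K27ac, so a fold of one list cannot be read directly against a fold of another. Folds are therefore given with their percentile among all peaks of the same list.

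Proximal sequences are shown for TMPO, whose H3K4me3 peak ranked lower in the knockdown than in the control list by more than that of nearly all other genes, for LMNB2, which had the lowest H3K4me3 fold in both lists, and for LEMD3, which had the highest control H3K4me3 fold. Each is the 250 bases before the canonical start from RefSeq (GRCh38.p14), with CCAAT boxes (CCAAT or ATTGG) and GC boxes (GGGCGG or CCGCCC) in capitals. TMPO is shown from chr12:98515340-98515589 (plus strand), LMNB2 from chr19:2456960-2457209 (minus strand) and LEMD3 from chr12:65169333-65169582 (plus strand).
TMPO: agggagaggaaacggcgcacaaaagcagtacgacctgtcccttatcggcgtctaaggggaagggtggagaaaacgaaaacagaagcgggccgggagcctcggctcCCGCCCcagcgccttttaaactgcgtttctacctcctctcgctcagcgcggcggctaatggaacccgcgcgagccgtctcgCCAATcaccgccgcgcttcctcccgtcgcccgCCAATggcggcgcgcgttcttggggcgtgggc
LMNB2: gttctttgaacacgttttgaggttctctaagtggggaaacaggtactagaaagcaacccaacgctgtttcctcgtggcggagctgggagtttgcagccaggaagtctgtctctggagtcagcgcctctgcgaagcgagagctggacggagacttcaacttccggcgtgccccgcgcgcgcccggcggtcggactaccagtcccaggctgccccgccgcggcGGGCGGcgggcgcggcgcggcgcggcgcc
LEMD3: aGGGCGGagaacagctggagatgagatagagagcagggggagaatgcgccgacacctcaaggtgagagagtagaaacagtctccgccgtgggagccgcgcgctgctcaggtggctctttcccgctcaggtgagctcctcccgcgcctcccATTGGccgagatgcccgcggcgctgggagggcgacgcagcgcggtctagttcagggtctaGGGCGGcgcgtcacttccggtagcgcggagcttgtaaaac
For LMNB1 and SUN2, whose windows overlap annotated untranslated exons of their own, only 30 bases around a CCAAT box are shown, from chr5:126776986-126777015 (plus strand) and chr22:38756082-38756111 (minus strand).
LMNB1: tgcctgctccccATTGGcccatggtagtca
SUN2: tgttcaaaccggCCAATgggtggcggcggt

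A RefSeq promoter began at the canonical start for 6 of the 9 members (LMNB1, LMNB2, TMPO, LEMD3, BANF1 and SUN2), and for LMNA, LBR and SUN1 none is used. A CCAAT box lay in 4 of these 6 windows, against 32.7% of 22198 promoter windows of protein-coding genes, and a GC box in 5 of 6, against 53.7%. None of the 6 held TATAAA or its reverse complement, which 9.01% of all windows held, or the CRE letters TGACGTCA, which 2.01% held. TTTGAA or its reverse complement, the letters of the cell-cycle CHR element, was in 2 of 6, LMNB2 and SUN2, against 11% of all. CpG dinucleotides numbered 32 in TMPO, 30 in LMNB2, 30 in SUN2, 29 in LMNB1, 25 in LEMD3 and 18 in BANF1, against a median of 16 over all windows. BANF1 had neither a CCAAT nor a GC box. These matches describe letters and do not show binding.

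All 9 genes carried an H3K4me3 promoter peak in both conditions, where 63.7% of protein-coding promoters did in the knockdown list, 61.8% in the control list and 61.7% in both. None was marked in 1 list only, as 1.99% of all promoters were in the knockdown list, against 0.0951% in the control list. H3K27ac promoter peaks were present at 8 of 9 members in the knockdown list, against 53.7% of all promoters, and at 9 of 9 in the control list, against 50.8%. The 8 were marked in both lists, as 50.1% of all promoters were, and 0 of 9 in the knockdown list only, against 3.55% of all. LMNB2 was the exception. It had an H3K27ac promoter peak in the control list only, as did 0.726% of all promoters. A promoter here is the canonical transcript start with 1 kb on either side, and its promoter peak is the overlapping peak of highest fold.

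**Figure D1:**
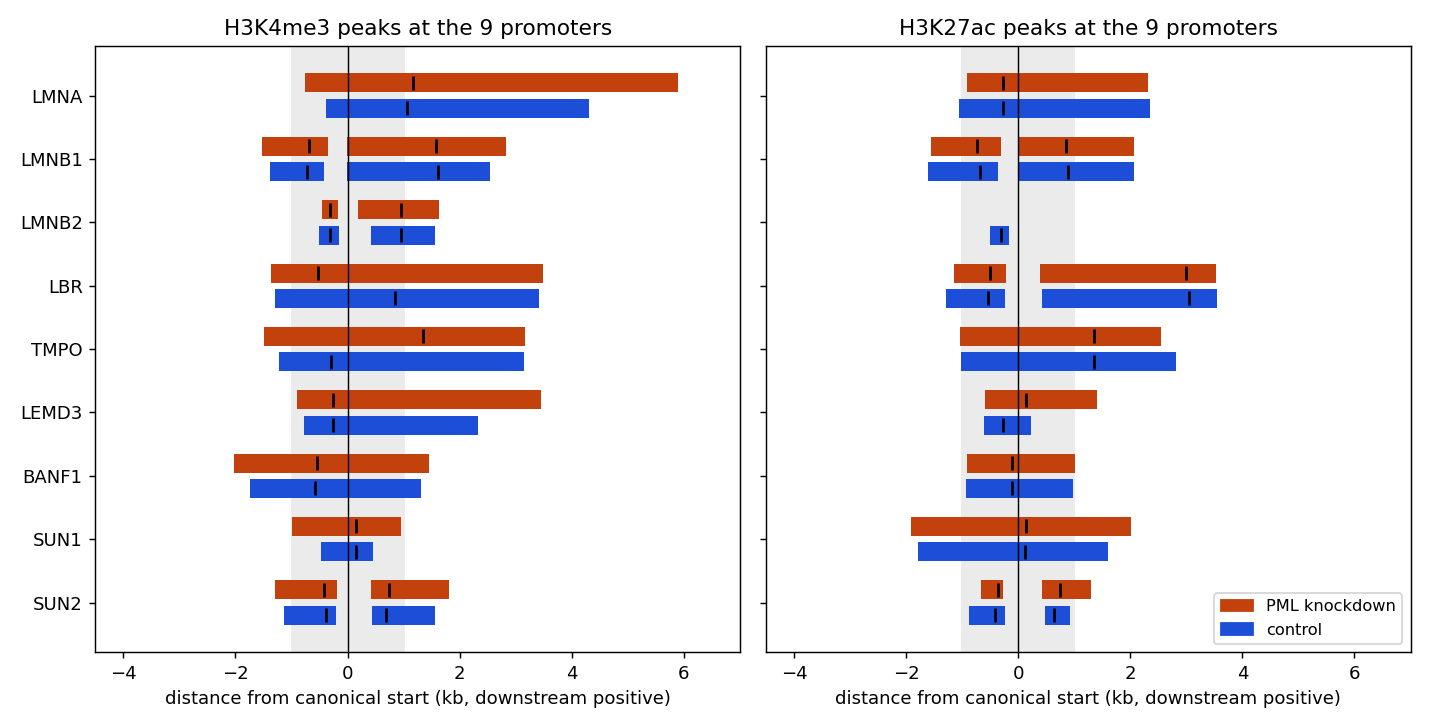
Extent of every H3K4me3 (left) and H3K27ac (right) peak that overlaps the promoter (grey band, 1 kb on either side of the start) of each gene. Distance from the canonical start in kb is on the horizontal axis, bars are peaks in PML knockdown (orange, above) and control (blue, below), and ticks are summits; the widest H3K4me3 bars are those of LMNA in the knockdown list (6664 bp) and LBR in the control list (4723 bp), and LMNB2 has no orange H3K27ac bar.

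LMNA encodes the A-type lamins, which stiffen the nucleus and whose mutations cause laminopathies (ENSG00000160789.24, chromosome 1, 156082573 to 156140081, plus strand, hg38). Its H3K4me3 promoter peak spanned 6664 bp in the knockdown list, against 4699 bp in the control list, and was wider than 99.5% and 98.8% of the peaks of those lists. Relative to the start it ran from -766 to 5897 bp in the knockdown list and from -388 to 4310 bp in the control list, so most of the added width lay downstream. Fold enrichment was 42.7 (percentile 84.1) in the knockdown list and 29.7 (percentile 90.7) in the control list, and among promoters marked in both lists these stood at percentiles 60.7 and 81.3. H3K27ac at the same start was 3244 bp wide with a fold of 16.2 in the knockdown list, against 3418 bp and 8.52 in the control list. The acetylation peak was thus not wider in the knockdown list although the methylation peak was.

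LMNB1, the B-type lamin made in nearly all cells and lost in senescence (ENSG00000113368.12, chromosome 5, 126776623 to 126837020, plus strand), had 2 promoter peaks of each mark, one upstream of its start and one that extended downstream. The downstream H3K4me3 peak was the stronger one, with a fold of 22.2 and a width of 2824 bp in the knockdown list, against 21.6 and 2559 bp in the control list. The upstream H3K4me3 peak had a fold of 12.1 in the knockdown and 8.08 in the control list. For H3K27ac the order was reversed: the upstream peak had a fold of 13.8 in the knockdown and 15.2 in the control list, and the downstream one 8.75 and 7.35. The upstream peaks lay over the start of LMNB1-DT, a divergent non-coding RNA that begins at -650 bp on the other strand. The downstream H3K4me3 peak began at -6 bp in the knockdown and -10 bp in the control list and so covered the start, while the downstream H3K27ac peak began at 11 and 14 bp. Between the H3K27ac peaks lay 318 bp in the knockdown and 371 bp in the control list, within which the CCAAT box shown above falls. Because folds were higher in the knockdown list at nearly all promoters, the near-equal H3K4me3 folds put LMNB1 at percentile 65.0 of the knockdown list, against 79.4 of the control list. Among the promoters marked in both lists it stood at 25.9 in the knockdown and 60.9 in the control list.

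LMNB2, the second B-type lamin (ENSG00000176619.13, chromosome 19, 2427638 to 2456959, minus strand), had the lowest H3K4me3 fold of the 9 in both lists. Its start lay between a short upstream H3K4me3 peak and a longer downstream one, 345 bp apart in the knockdown list and 572 bp apart in the control list. The downstream peak had a fold of 8.44 and a width of 1448 bp in the knockdown list, against 3.16 and 1143 bp in the control list. The upstream peak had a fold of 2.24 and a width of 301 bp in the knockdown list, against 4.22 and 361 bp in the control list. The peak of highest fold was thus downstream in the knockdown list and upstream in the control list, so the width ratio of 4.01 for this gene compares different peaks. Compared by the widest peak it was 1.27. H3K27ac was called only on the upstream side and only in the control list, over 340 bp with a fold of 3.50 (percentile 20.3) and a -log10 q of 12.6. Within 6 kb on either side of the start, H3K27ac peaks covered 1196 bp in the knockdown and 1840 bp in the control list.

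LBR, a receptor for lamin B and heterochromatin that is also a sterol reductase (ENSG00000143815.15, chromosome 1, 225401502 to 225428925, minus strand), had an H3K4me3 peak of 4852 bp with a fold of 40.7 in the knockdown list, against 4723 bp and 30.8 in the control list. Those widths exceeded 98.1% and 98.8% of the peaks in their lists. H3K27ac flanked the start, with the larger peak beginning 388 bp downstream in the knockdown and 435 bp downstream in the control list. That peak was 3137 bp wide with a fold of 14.4 in the knockdown list, against 3106 bp and 18.0 in the control list. Its summit lay 2995 bp after the start in the knockdown and 3049 bp after it in the control list, outside the promoter window. The upstream H3K27ac peak, with summits at -500 and -528 bp, had a fold of 12.9 in the knockdown and 14.8 in the control list. The extents of the larger peak hardly differed, while its H3K27ac fold stood at percentile 80.2 of the knockdown list, against 92.3 of the control list. Among the promoters marked in both lists it stood at 58.8 in the knockdown and 83.5 in the control list.

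TMPO encodes the LAP2 proteins, which bind lamins and BANF1 (ENSG00000120802.14, chromosome 12, 98515579 to 98550351, plus strand). It was the only member whose H3K4me3 fold was lower in the knockdown list, at 13.2 against 23.3 in the control list. Its ratio of 0.566 lay at percentile 0.316 of the ratios of 12328 promoters marked in both lists. Its percentile among all peaks was 52.6 in the knockdown and 82.5 in the control list, and among the promoters marked in both lists 11.6 and 66.2. The width was 4667 bp in the knockdown and 4362 bp in the control list, and -log10 q was 194 and 201. The summit lay at 1339 bp from the start in the knockdown list and at -295 bp in the control list. A narrow peak's fold belongs to its summit, so the ratio compares 2 points of 1 broad peak, which also holds the start of the antisense RNA TMPO-AS1, 832 bp downstream. H3K27ac at TMPO, whose summits lay 1350 and 1346 bp downstream, had a fold of 5.68 in the knockdown and 5.84 in the control list.

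LEMD3, also called MAN1, is an inner membrane protein that restrains TGF-beta signalling through SMAD proteins (ENSG00000174106.3, chromosome 12, 65169583 to 65248355, plus strand). Its H3K4me3 peak had a fold of 65.3 over 4352 bp in the knockdown list, against 35.0 over 3107 bp in the control list, at percentile 95.0 and 94.9 of all peaks, and at 86.3 and 89.5 among promoters marked in both lists. The H3K27ac peak was 1998 bp wide in the knockdown list and 840 bp wide in the control list, a ratio of 2.38 at percentile 92.3 of all promoters. Its fold went the other way, at 7.92 in the knockdown and 9.72 in the control list. The added width lay on the downstream side, where the peak ended 1403 bp after the start in the knockdown list and 225 bp after it in the control list. A divergent non-coding RNA, ENSG00000289319, starts at -121 bp on the other strand.

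BANF1 encodes the barrier-to-autointegration factor, a small protein that bridges DNA and LEM-domain proteins (ENSG00000175334.8, chromosome 11, 66002228 to 66004149, plus strand). EIF1AD starts at -346 bp on the other strand, and the 2 genes share each peak, so the marks cannot be assigned to one of them. H3K4me3 had a fold of 68.4 over 3489 bp in the knockdown list, the highest of the members there, against 32.3 over 3061 bp in the control list. H3K27ac had a fold of 23.8 (percentile 92.3) in the knockdown list, against 9.39 (percentile 74.5) in the control list. That ratio of 2.54 stood at percentile 92.2 of 10009 promoters marked in both lists, while the H3K27ac widths of 1938 and 1918 bp were nearly alike.

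SUN1 and SUN2 reach through the inner membrane to bind KASH-domain proteins of the outer one. At the canonical start of SUN1 (ENSG00000164828.18, chromosome 7, 816615 to 896435, plus strand), H3K27ac was the strongest of the members, with a fold of 42.4 over 3925 bp in the knockdown list, against 23.7 over 3384 bp in the control list, at percentile 98.6 and 96.4 of all peaks, and at 95.7 and 91.7 among promoters marked in both lists. H3K4me3 was weak there, with a fold of 11.7 over 1944 bp in the knockdown list, against 4.45 over 931 bp in the control list. Other protein-coding transcripts of SUN1 begin as far as -15861 bp from it, and near those H3K4me3 had a fold of 24.1 in the knockdown and 21.0 in the control list. There H3K27ac had no peak in the knockdown list and a fold of 3.39 over 345 bp in the control list. The 2 starts of SUN1 thus differed in which mark ranked higher, in both conditions.

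SUN2 (ENSG00000100242.16, chromosome 22, 38733290 to 38794143, minus strand) had its start between 2 peaks of each mark. The downstream H3K4me3 peak had a fold of 35.2 over 1392 bp in the knockdown list, against 14.5 over 1120 bp in the control list. The upstream one had 14.3 over 1104 bp in the knockdown list, against 12.9 over 922 bp in the control list. For H3K27ac the downstream peak had a fold of 11.8 over 865 bp in the knockdown list, against 5.23 over 444 bp in the control list. The upstream H3K27ac peak ran the other way, with 4.71 over 396 bp in the knockdown list, against 6.77 over 646 bp in the control list. The H3K27ac promoter peak was therefore the downstream one in the knockdown list and the upstream one in the control list. The peak-free stretch around the start measured 609 bp in the knockdown and 650 bp in the control list for H3K4me3, and 706 and 718 bp for H3K27ac.

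**Figure D2:**
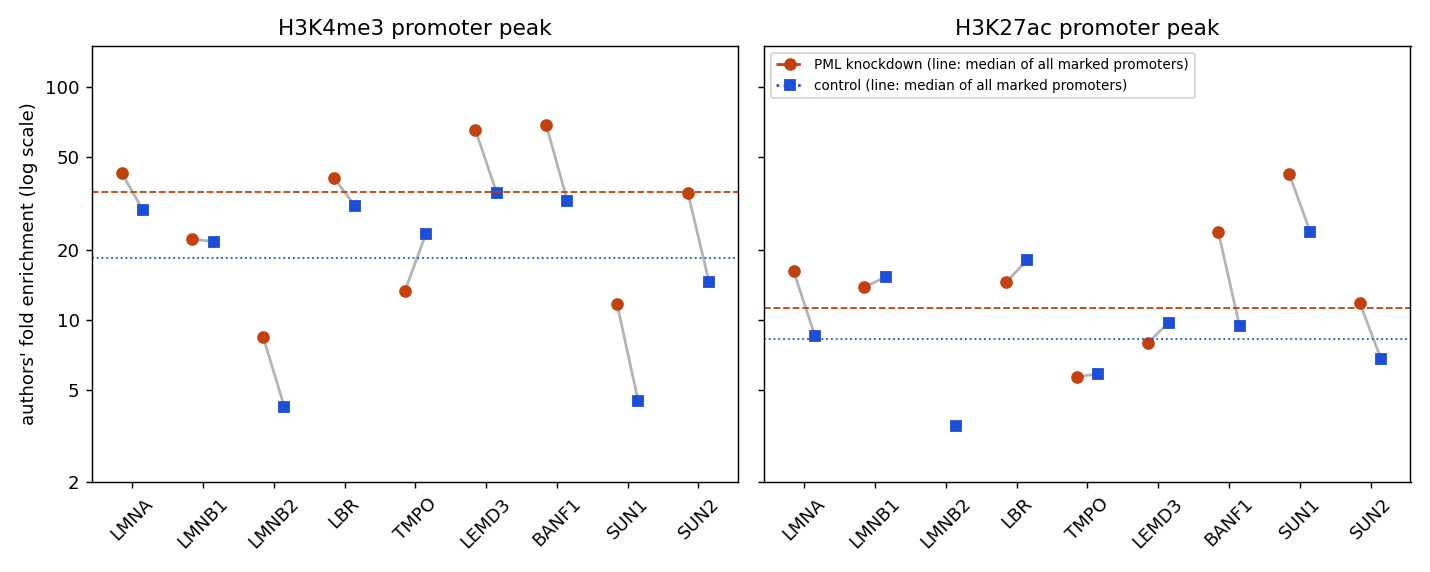
Authors' fold enrichment (log scale) of the promoter peak of H3K4me3 (left) and H3K27ac (right) at each gene, with PML knockdown as circles and control as squares joined by a grey line. Horizontal lines are the medians over all marked promoters, dashed at 35.3 and 11.2 for knockdown and dotted at 18.4 and 8.26 for control; TMPO is the only gene whose H3K4me3 circle lies below its square.

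The members' median H3K4me3 fold was 35.2 in the knockdown and 23.3 in the control list, against 35.3 and 18.4 over all marked promoters. Their median H3K27ac fold was 14.1 in the knockdown and 9.39 in the control list, against 11.2 and 8.26 over all marked promoters. Median H3K4me3 width was 3489 bp in the knockdown and 3061 bp in the control list, against 2203 and 1835 bp over all marked promoters. For H3K27ac the medians were 2568 bp over the 8 marked members in the knockdown list and 1918 bp over 9 in the control list, where all marked promoters had 1444 and 1258 bp. Within the group the H3K4me3 widths ran from 1392 to 6664 bp in the knockdown list and from 361 to 4723 bp in the control list, so the spread among members was far larger than the difference of the medians.

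The H3K4me3 promoter peak was wider in the knockdown list at 9 of 9 members, and 94.5% of all promoters marked in both lists were. The median ratio was 1.24 for the members and 1.13 for all, with a central 80% of all ratios from 1.02 to 1.93. SUN1 (2.09) and LMNB2 (4.01, the comparison of different peaks) lay above that range, and LBR (1.03) at its lower end. For H3K27ac 6 of 8 members were wider in the knockdown list, against 70.2% of all, with a median ratio of 1.01 for the members and 1.08 for all. LMNA (0.949) and TMPO (0.934) were narrower in the knockdown list. At LMNB1 the ratio was 1.00, and joining neighbouring peaks gave 0.986, and SUN2 (1.34) compares its downstream with its upstream peak, so the count of 6 includes both of these.

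**Figure D3:**
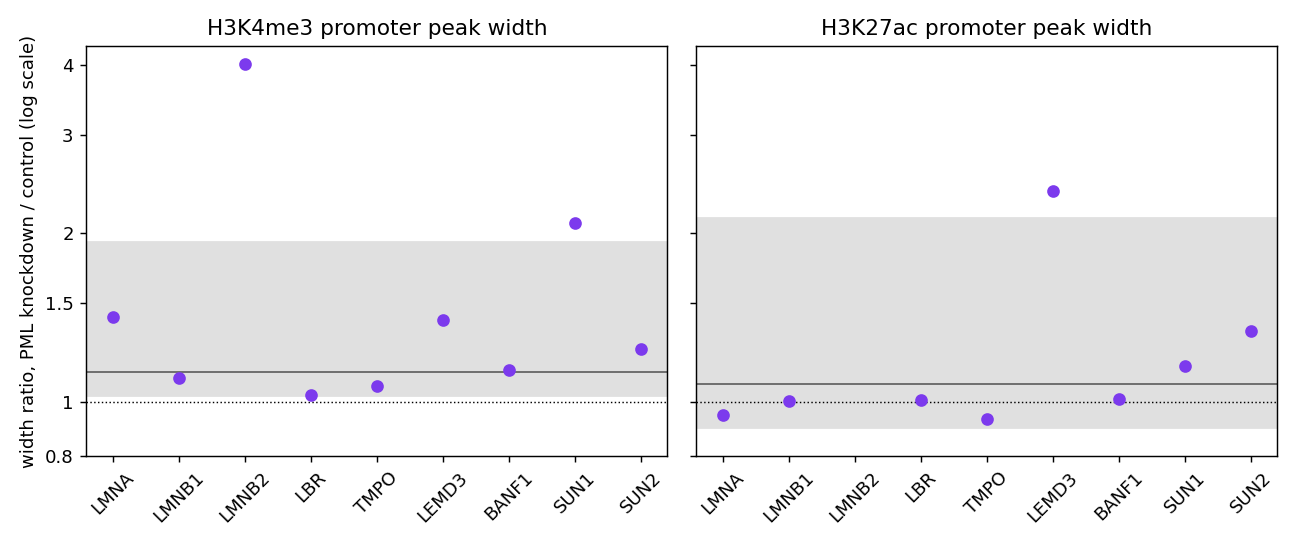
Ratio of promoter peak width, PML knockdown over control (log scale), for H3K4me3 (left) and H3K27ac (right). Points are the genes, the grey line is the median over all promoters marked in both lists (1.13 and 1.08), the grey band their central 80%, and the dotted line equal width; LMNB2 has no H3K27ac point because it has no peak in the knockdown list.

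Fold enrichment was higher in the knockdown list at 8 of 9 members for H3K4me3, against 95.5% of all promoters, but at 4 of 8 for H3K27ac, against 81.5% of all. The 8 for H3K4me3 include LMNB2, whose folds of 8.44 in the knockdown and 4.22 in the control list belong to different peaks. The 4 with a higher H3K27ac fold were LMNA, BANF1, SUN1 and, comparing different peaks, SUN2, and the 4 with a lower one were LMNB1, LBR, TMPO and LEMD3. The lower ratios were 0.905 for LMNB1, 0.801 for LBR, 0.974 for TMPO and 0.816 for LEMD3, between percentiles 7.09 and 16.7 of all promoters. The LMNB1 ratio is that of the upstream peak, over the start of LMNB1-DT. Its downstream H3K27ac peak went the other way, with a fold of 8.75 in the knockdown and 7.35 in the control list. For LBR the H3K27ac summits lay 2995 and 3049 bp after the start, outside the promoter window. The upstream LBR peak was lower in the knockdown list too, at 12.9 against 14.8. For H3K4me3 the ratios of LMNB1 (1.03) and LBR (1.32) stood at percentiles 5.07 and 15.7, and that of TMPO at 0.316, while LEMD3 (1.87) was at 48.5. The LBR H3K4me3 summit lay at -527 bp from the start in the knockdown and at 841 bp in the control list. The LEMD3 H3K27ac summit lay at 134 bp in the knockdown and at -266 bp in the control list. As for H3K4me3 at TMPO, those ratios compare different points of a peak. Ranked among promoters marked in both lists, 4 of 9 members were higher in the knockdown list for H3K4me3 and 4 of 8 for H3K27ac, against 47.7% and 47.4% of all. Without a value per replicate these percentiles order the genes and are not a test.

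Starts that lie in a gap between flanking peaks were seen at 2 of 9 members for H3K4me3 in each list (LMNB2 and SUN2), against 10.9% of marked promoters in the knockdown list, against 16.3% in the control list. For H3K27ac they were seen at 3 of 8 marked members in the knockdown list and 3 of 9 in the control list (LMNB1, LBR and SUN2), against 10.6% and 15.4%. The genes were the same in both conditions.

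Gene-body peaks, those that overlap the gene and not the promoter, were found at 4 of 9 members for H3K4me3 in each list (LMNA, LMNB2, SUN1 and SUN2), against 28.1% of all genes in the knockdown list, against 21.1% in the control list. For H3K27ac they were found at 5 of 9 in each list, LBR being added, against 38.9% and 36.6%. LMNB1, TMPO, LEMD3 and BANF1 had none of either mark in either list. There were 9 H3K4me3 body peaks in the knockdown list, against 8 in the control list, or 0.216 and 0.192 per 10 kb of gene, and 14 and 13 H3K27ac body peaks, or 0.336 and 0.312 per 10 kb. All genes had 0.0747 and 0.0467 H3K4me3 peaks and 0.156 and 0.148 H3K27ac peaks per 10 kb. LMNA alone held 5 and 4 of the H3K4me3 and 7 and 7 of the H3K27ac body peaks. Without LMNA the members had 0.111 H3K4me3 peaks per 10 kb in each list, and 0.194 H3K27ac peaks in the knockdown list against 0.166 in the control list.

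Of the members' body peaks, 8 of 9 H3K4me3 peaks of the knockdown list and 8 of 8 of the control list overlapped a peak of the other condition, as did 12 of 14 and 12 of 13 H3K27ac peaks. Over all genes the shares were 57.9% and 98.8% for H3K4me3, and 83.0% and 90.9% for H3K27ac. Some of these peaks mark starts of other genes: 4 of the H3K4me3 peaks in each list lay within 1 kb of the start of MEX3A (at the upstream end of LMNA), TIMM13 (at the downstream end of LMNB2), GET4 (inside SUN1) or DNAL4 (at the upstream end of SUN2). These neighbours are named because of the peaks there. Of the H3K27ac body peaks, 2 in the knockdown and 1 in the control list lay within 1 kb of another gene's start. They were at TIMM13 in each list, the only H3K27ac body peak of LMNB2, and at DNAL4 in the knockdown list. The SUN2 peak next to DNAL4 also lay at an upstream transcript start of SUN2, with an H3K4me3 fold of 28.6 in the knockdown list, against 16.9 in the control list. The LMNA peak next to MEX3A likewise lay at an upstream transcript start of LMNA. Further H3K4me3 body peaks lay within 1 kb of other transcript starts of the member itself in both lists. In the knockdown list their summits were at -8482 and 12341 bp in LMNA and at -15131 bp in SUN1. The densities of both marks above thus include peaks at starts of neighbours and of other transcripts.

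The strongest intragenic acetylation was in LMNA. A pair of H3K27ac peaks had their summits in intronic sequence of the canonical transcript. These lay 12408 and 15445 bp after the start in the knockdown list and 12143 and 15414 bp after it in the control list. The first spanned 5333 bp with a fold of 24.5 in the knockdown list, against 5254 bp and 14.8 in the control list (chromosome 1, 156122177 to 156127509 in the knockdown and 156122199 to 156127452 in the control list). The other spanned 3183 bp with a fold of 24.0 in the knockdown list, against 3093 bp and 16.3 in the control list. In both lists these peaks had a higher fold than the H3K27ac peak at the LMNA promoter. Protein-coding transcripts of LMNA are annotated to begin in the first, at 11449 to 11844 bp, where H3K4me3 had a fold of 6.85 in the knockdown and 2.59 in the control list. An H3K4me3 peak within the other, with a fold of 3.44 over 821 bp, was in the knockdown list only. An H3K27ac peak of SUN1 with its summit in exon 19 (fold 3.65, -log10 q 5.01) was also in the knockdown list only.

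**Figure D4:**
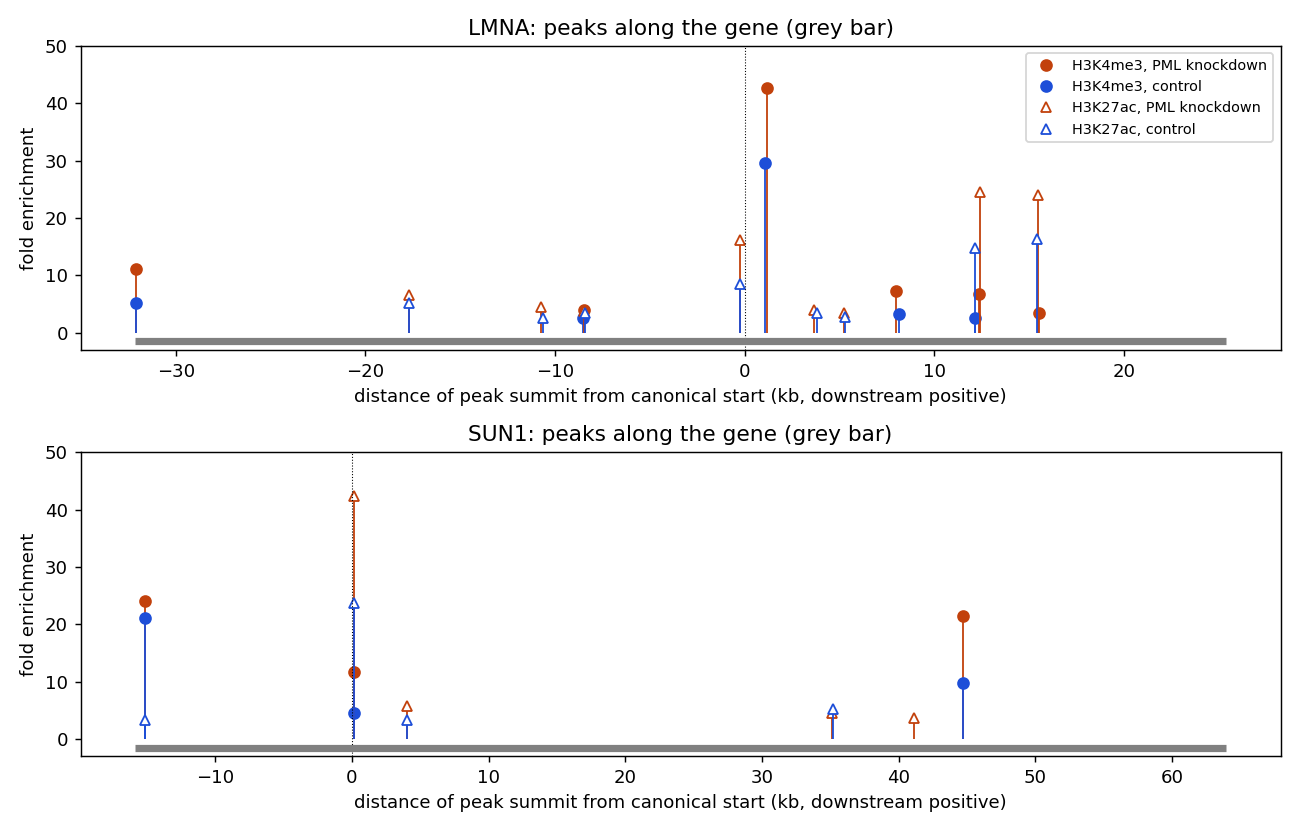
Fold enrichment of every peak over LMNA (top) and SUN1 (bottom) against the distance of its summit from the canonical start in kb, with circles for H3K4me3, open triangles for H3K27ac, orange for PML knockdown and blue for control. The 2 tallest triangles of LMNA in each condition lie in its introns and not at its start, and in SUN1 the H3K4me3 circles stand higher at the upstream start than at the canonical one, where H3K27ac is highest.

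H3K27ac peaks within 50 kb of the start but outside the promoter numbered 8 at LMNA, 8 at LMNB2, 7 at LBR and 7 at BANF1 in the knockdown list, against 8, 7, 7 and 6 in the control list. TMPO had 3 and SUN1 had 4 in each list, and SUN2 had 4 in the knockdown and 2 in the control list. LMNB1 had 0 in the knockdown and 1 in the control list, and LEMD3 had 0 in both. Over all genes the median was 2 and the 10th percentile 0 in each list. LMNB1 and LEMD3 thus had almost no other H3K27ac peak within 50 kb at the authors' threshold.

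None of the 9 genes started in a domain of any list, where 13.1% of genes started in PML domains, 11% in knockdown and 12.4% in control LMNB1 domains, and 8.6% in knockdown and 10% in control H3K9me3 domains. No domain overlapped any part of these genes either. The median distance of the members to the nearest domain was 2.54 Mb for PML, 3.51 and 3.52 Mb for knockdown and control LMNB1, and 3.51 and 2.48 Mb for knockdown and control H3K9me3. Over all genes that started outside, the medians were 1.64, 2.11, 1.87, 2.46 and 1.55 Mb in the same order. Starts within 1 Mb of a PML domain numbered 2 of 9 (LMNB1 and TMPO), against 42.2% of all genes, those inside a domain included. For LMNB1 domains they numbered 2 of 9 in the knockdown and 1 of 9 in the control list, against 36.7% and 40.7%, and for H3K9me3 domains 0 and 1 of 9, against 33.7% and 44%.

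**Figure D5:**
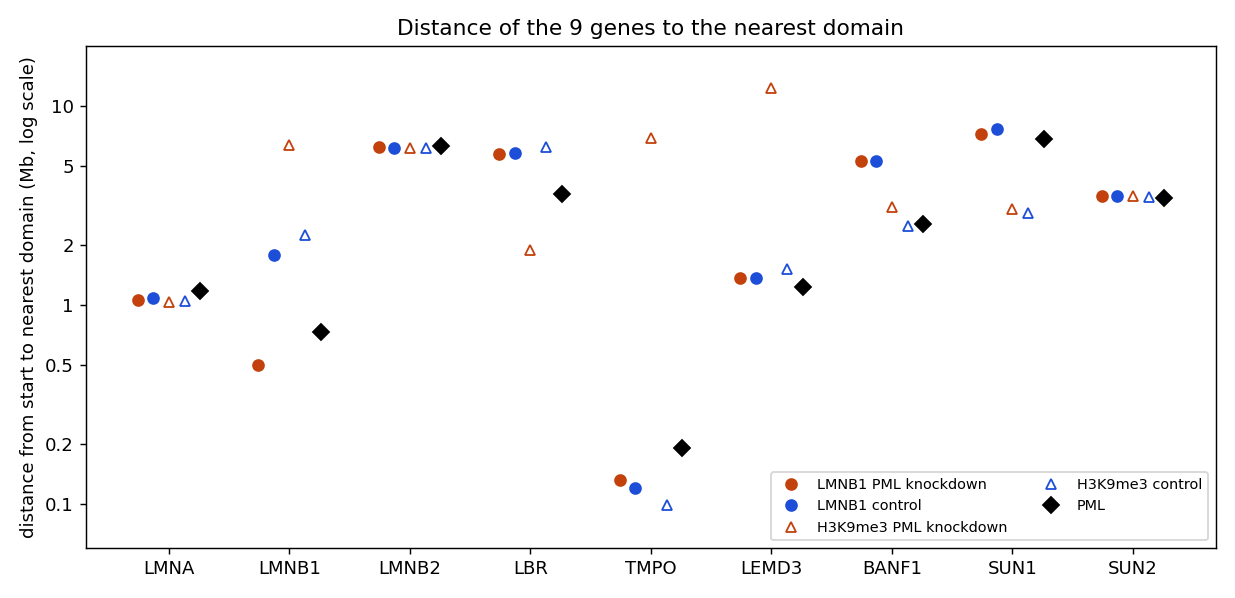
Distance from the canonical start of each gene to the nearest edge of a domain (Mb, log scale) in LMNB1 (filled circles), H3K9me3 (open triangles) and PML (black diamonds) lists, orange for PML knockdown and blue for control. TMPO lies nearest to domains in all lists except knockdown H3K9me3, and the LMNB1 gene is the one whose knockdown and control LMNB1 circles are farthest apart.

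TMPO was the member nearest to lamina-bound chromatin. The edge of an LMNB1 domain lay 132 kb upstream of its start in the knockdown list, against 120 kb upstream in the control list, a difference below the 22 kb grid of the coarser list. The PML domain edge was 191 kb away, and all 3 domains covered nearly the same stretch of chromosome 12 (96734001 to 98384000 in the knockdown LMNB1 list, 96543001 to 98396000 in the control LMNB1 list and 96552001 to 98325000 in the PML list). An H3K9me3 domain ended 98.6 kb upstream in the control list. In the knockdown list the nearest H3K9me3 domain was 6869 kb away on the other side, so the domain beside TMPO had no counterpart there.

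The LMNB1 gene was the member whose distance to LMNB1 protein domains differed most between conditions. In the knockdown list a domain of 902 kb (chromosome 5, 125378001 to 126280000, score 28.2) ended 497 kb upstream of the gene, while in the control list the nearest domain lay 1777 kb downstream. The difference of -1280 kb was at percentile 4.43 of all genes. No control LMNB1 domain overlapped the 902 kb stretch, which held no start of a protein-coding gene. A PML domain covered 73.8% of it, and no H3K9me3 domain of either list overlapped it. Its score stood at percentile 28.7 of the knockdown list.

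At 4 members (TMPO, LEMD3, BANF1 and SUN2) the distance to an LMNB1 domain differed by less than the grid. For LEMD3 the distances of 1370 kb in the knockdown and 1368 kb in the control list were to different domains, one upstream of the gene in the knockdown list and one downstream in the control list. By more than the 22 kb grid, 4 of 9 members were nearer to a domain in the knockdown list (LMNA, LMNB1, LBR and SUN1) and 1 was farther (LMNB2), against 21.8% and 34.4% of all genes. Differences were -31 kb for LMNA, -35 kb for LBR and 49 kb for LMNB2. At SUN1, where the nearest domain was 8338 kb long in the knockdown and 12206 kb in the control list, the distance was 7198 kb in the knockdown and 7617 kb in the control list.

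Distances to H3K9me3 domains differed at more members. Beyond the 35 kb grid, 5 of 9 members were farther from a domain in the knockdown list (LMNB1, TMPO, LEMD3, BANF1 and SUN1) and 1 was nearer (LBR), against 41.9% and 28.6% of all genes. LEMD3 was 12285 kb from the nearest H3K9me3 domain in the knockdown list, against 1506 kb in the control list. LMNB1 was 6328 kb away in the knockdown and 2232 kb in the control list. LBR went the opposite way, with a knockdown domain 1883 kb away (chromosome 1, 222985001 to 223545000, score 9.99) and the nearest control domain 6205 kb away. That score was at percentile 12.5 of its list, whose lowest score was 9.15. The knockdown H3K9me3 list held 281 domains over 361 Mb, against 430 over 629 Mb in the control list, and how far this smaller list sets the members' distances was not tested.

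Of 27 further envelope genes, 19 (70.4%) had an H3K4me3 promoter peak in each list, against 63.7% and 61.8% of all promoters in the knockdown and control lists. An H3K27ac promoter peak was present at 18 (66.7%) in each list, against 53.7% and 50.8% of all, and the knockdown and control lists marked the same genes. The 8 without H3K4me3 included CHMP7, a membrane-sealing factor, IFFO1, KASH5, a meiotic linker protein, and MLIP, a muscle protein that binds lamin A. MLIP was also the only one of the 27 that started in a PML domain or in an LMNB1 domain of either condition. LEMD2, SYNE3 and TMEM43 started in H3K9me3 domains in the knockdown list, that is 3 of 27 against 8.6% of all genes, and none of the 27 did in the control list, against 10%. Of 12 nuclear pore genes, all had H3K4me3 peaks in both lists, and H3K27ac was present at 12 in the knockdown and 11 in the control list, NUP210 being the one not marked in the control list. TPR, the filament protein of the pore basket, started in PML and in both LMNB1 domain lists. The H3K4me3 peak was wider in the knockdown list at 18 of 19 envelope and 12 of 12 pore genes, with median ratios of 1.20 and 1.12. Over all promoters marked in both lists the share was 94.5% and the median ratio 1.13. The H3K27ac peak was wider at 13 of 18 envelope and 5 of 11 pore genes, with median ratios of 1.06 and 0.988. For this mark the share over all was 70.2% and the median ratio 1.08.

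Across the 4 peak lists, the protein-coding genes whose promoter percentiles were most like those of LMNB1 were SCMH1, ANKAR and LEMD2, among 9804 promoters marked in all 4. The largest difference in percentile from LMNB1 in any list was 1.65 for SCMH1, 3.80 for ANKAR and 4.76 for LEMD2. LEMD2, itself an inner membrane LEM-domain protein, stood at 62.6 and 74.7 for knockdown and control H3K4me3 and at 81.3 and 91.7 for knockdown and control H3K27ac. LMNB1 stood at 65.0 and 79.4 for H3K4me3 and at 78.8 and 88.8 for H3K27ac in the same order. Its H3K4me3 percentiles are those of the downstream peak, and its H3K27ac percentiles those of the upstream peak, over the start of LMNB1-DT. The downstream H3K27ac peak of LMNB1 stood at 62.1 in the knockdown and 64.3 in the control list. With 4 lists the likeness is a description.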

How the data were processed

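The submitters' processing notes name hg38 as the build and, with no role, the tools MACS2 2.2.7.1, BWA 0.7.12-r1039, deepTools and Picard 1.104. The peak lists hold, as deposited, a fold enrichment per peak (a ratio), a -log10 p and a -log10 q, an integer score, found to be 10 times the -log10 q rounded down, and a summit. The domain lists hold 1 score per domain as deposited, with no unit given, and their names call them EDD. Knockdown and control peak files are marked pml and ct, which is read here, as an assumption, as PML knockdown and control. Reads and depth are not given, so precision could not be derived. H3K27me3 and input libraries were not used here.

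Distances, overlaps (1 bp) and percentiles were computed with Python 3.11.15, numpy 2.4.6 and pandas 2.3.3, promoter calls were checked with bedtools 2.31.1, and the code was tested on simulated lists. Genes and canonical starts are from GENCODE release 44. The -log10 p was not used. A percentile is the share of peaks, promoters or genes with a lower value, and for fold enrichment ties share their average rank. No test was run, since each condition has 1 list per target. Members were given by name, and members and gene lists were chosen with earlier results of these data known. Named genes were the members, genes of the 2 further lists that were unmarked, marked in 1 condition or in a domain (at most 4 per category), neighbours starting within 1 kb, and the 3 promoters most like LMNB1. Ranks among promoters marked in both lists, and density without LMNA, were added after the data were seen.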

Additional observations from a re-analysis of the deposited data

How the results depend on the processing

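All counts of members with a promoter peak, wider peaks, body peaks or starts in domains, and the median width ratios and distances, stayed within 1.5 times their values in each of the 114 comparisons with another promoter size (500 or 2500 bp on either side), any transcript start, a -log10 q of at least 5, equal numbers of peaks, joined peaks, the widest peak, a stricter overlap, 2500 bp left out of gene bodies, domains of at least 500 kb, domains joined within 100 kb or distance from the gene's end. At that limit were the H3K27ac body peaks with a peak in the other condition. At a -log10 q of at least 5 they numbered 8 of 12 in the knockdown list, against 12 of 14 as reported. In the control list they numbered 8 of 9, against 12 of 13. Some of the 114 comparisons could not come out otherwise. A count of 9 of 9 marked members could not change with a wider promoter, nor 0 starts in domains when shorter domains were dropped. For single genes and densities, 188 values kept their direction within 1.5 times, 16 moved further, 10 of them rank differences and 4 the densities of gene-body peaks without LMNA, and 3 changed direction. The H3K27ac width ratio of LMNB1 was 0.998 by the widest peak and 0.986 with peaks within 500 bp joined, against 1.00 as reported. The H3K4me3 rank difference of LEMD3, knockdown minus control, was -3.20 percentile points among promoters marked in both lists, a ranking chosen after seeing the data, and 0.0466 among all peaks. With domains of at least 500 kb, BANF1 was 5388 kb from a PML domain, against 2544 kb. The cause of these shifts was not tested. No paired analysis was possible because each list gives 1 value per peak or domain and none per replicate, and for the same reason no replicate could be left out. Depth limits are unknown, since the lists give no counts.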
